A study of Mus musculus with 9 samples.

Results

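The wild-type libraries of a study of resting regulatory T cells (Treg cells) were described gene by gene, by level and by the spread between libraries. The members were the 5 wild-type libraries that have a column of their own in the authors' count table, out of 9 samples in the series. They carry the label numbers 398, 402, 405, 1032 and 1037. Their column headers start with YI for 398, 402 and 405 and with R for 1032 and 1037. The sources used here do not say what these letters mean. The labels list 6 wild-type and 3 CNS2-deficient samples, and the number 407 appears under both genotypes with identical values in all rows, so both columns of that number were left out. No genotype was compared.

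All 5 libraries come from primary mouse T cells that were isolated ex vivo and sorted, with the genotype Foxp3gfp, and were taken in the resting state. Foxp3gfp names a Foxp3 allele with a green fluorescent protein reporter, so the wild-type cells are reporter cells and not cells of an unmodified strain. The sources used here do not give the sort gates, the tissue, or the age and sex of the mice. The labels also do not say whether libraries came from separate animals, so the spread between them may be technical. Total RNA was amplified with SMARTer chemistry and sequenced on the Proton platform.

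Treg cells are CD4 T cells that hold back immune responses. The transcription factor Foxp3 sets much of their gene expression, and they depend on interleukin-2 (IL-2), which they bind through a receptor whose high-affinity chain is Il2ra. In the resting state they circulate through lymphoid organs, carry homing molecules shared with naive T cells and express inhibitory receptors such as Ctla4.

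Levels are given in CPM, the reads of a gene scaled to a common number of reads on genes per library, after TMM scaling, which evens out differences in library composition. CPM grows with transcript length, so an order of genes by CPM is an order of reads, and CPM per kilobase of the longest coding transcript is given beside it where genes or lists are set in order of level. Spread is the coefficient of variation (CV), the SD over the 5 libraries in percent of their mean. WT 402 had the fewest reads on genes, 16557424, and WT 405 the most, 19154642, and 3 reads, taken as the floor of detection, correspond to 0.154 to 0.180 CPM. This floor covers counting error only.

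The 5 markers of the Treg identity were read at 353 CPM or more in every library. Foxp3 stood at 633 CPM in WT 398, 406 in WT 402, 533 in WT 405, 450 in WT 1032 and 451 in WT 1037, a mean of 495 ± 90.0 (SD, n = 5). WT 398 was the highest and WT 402 the lowest, and the ratio between them was 1.56. Without WT 398 the CV of Foxp3 went from 18.2% to 11%.

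The IL-2 receptor chain Il2ra stood at 1906, 1548, 1905, 2235 and 1672 CPM in WT 398, 402, 405, 1032 and 1037, a mean of 1853 ± 263 CPM (SD, n = 5). Ikzf2, which encodes the Ikaros family factor Helios, had 1065, 911, 955, 1004 and 898 CPM in the same order. Its CV over the 5 libraries was 7.1%, the narrowest of the 5 markers. Ctla4, an inhibitory receptor that competes with Cd28 for its ligands, had 353, 431, 451, 431 and 406 CPM, and Cd4, the coreceptor for MHC class II, had 717, 532, 592, 769 and 678 CPM. Without WT 398, which was lowest for Ctla4, the CV of that gene went from 9.1% to 3.9%, and without WT 1032 that of Il2ra from 14.2% to 9.3%. No library was lowest for all 5 markers: WT 402 was lowest for 3 of them, WT 398 for Ctla4 and WT 1037 for Ikzf2. Per kilobase, Il2ra (420 ± 59.6 CPM per kb) stood above Ctla4 (215 ± 19.5) and Cd4 (212 ± 30.7), whose values lie within their spread of each other. Foxp3 (129 ± 23.5 CPM per kb) and Ikzf2 (104 ± 7.42) followed.

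**Figure D1:**
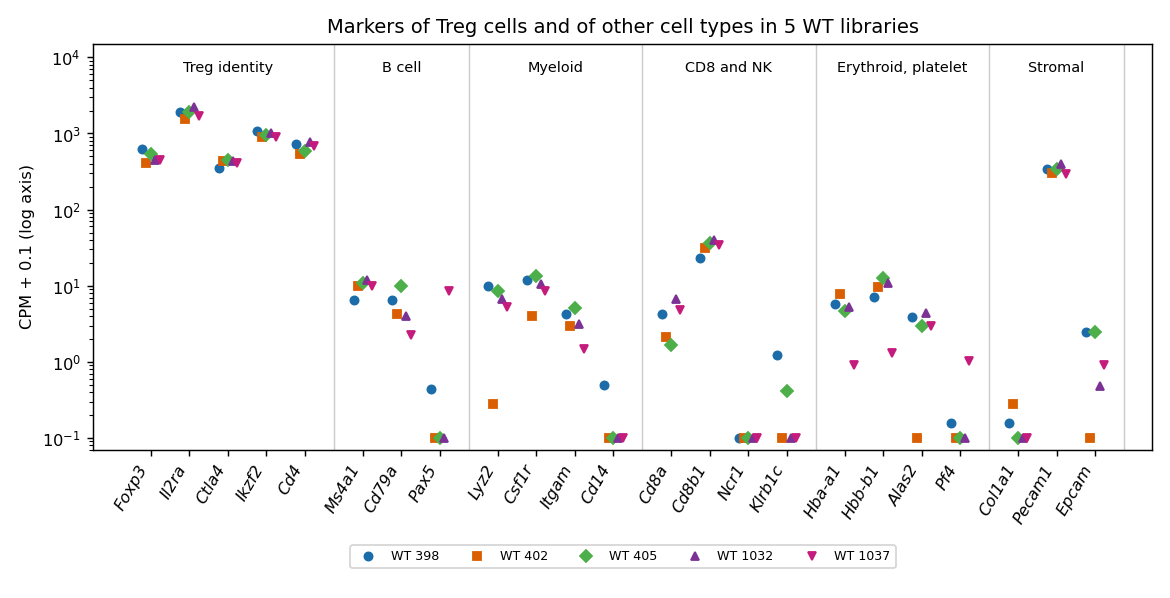
CPM plus 0.1 (log axis) of the 5 Treg markers and of markers of other cell types in the 5 WT libraries; each symbol is 1 library, and there are no error bars. The 5 Treg markers lie between 353 and 2235 CPM. The markers of other cells shown here lie at 40.1 CPM or lower in every library, except Pecam1, which lies at 291 to 393 CPM. Ighm and Cd74 of the longer B cell list, which lie higher, are not shown.

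Markers of other cells were low, and their levels did not single out the same library each time. Of the B cell markers, Ms4a1 reached 6.43 to 11.7 CPM and Cd79a 2.14 to 9.88, and Pax5 was at 0 in 3 libraries and at 8.39 CPM in WT 1037. The myeloid markers Lyz2, Csf1r and Itgam had means of 5.98, 9.53 and 3.29 CPM, and Cd14 had reads only in WT 398, at 0.398 CPM. Of the markers of CD8 T cells and natural killer cells, Cd8b1 stood at 23.4 to 40.1 CPM and Cd8a at 1.54 to 6.49 CPM, Ncr1 had no read and Klrb1c was at or below 1.14 CPM. The hemoglobin genes Hba-a1 and Hbb-b1, which share reads with near-identical copies and are therefore uncertain, had means of 4.73 and 8.21 CPM and were lowest in WT 1037 (0.810 and 1.21). Pecam1, an adhesion molecule of endothelium that leukocytes also carry, was the exception among the stromal markers, with 335 ± 39.4 CPM (SD, n = 5) beside Epcam at 1.18 and Col1a1 at 0.0475 CPM.

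Over the longer lists, 4 of 15 B cell genes and 1 of 19 myeloid genes had a mean of 10 CPM or more. The summed B cell list ranged from 1241 to 1531 CPM, of which Ighm, the immunoglobulin M constant gene, made up 998 to 1294 CPM and the invariant chain Cd74 129 to 168 CPM. Ighm and Cd74 were thus not low, unlike Ms4a1, Cd79a and Pax5. The summed myeloid list ranged from 71.5 to 99.6 CPM, the list of CD8 and natural killer cells from 107 to 109 CPM and the erythroid and platelet list from 7.98 to 30.7 CPM. How far RNA of other cells entered the levels given here was not tested. In bulk samples, fewer cells of a type and less RNA per cell cannot be told apart.

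The count table lists 34092 genes, of which 20290 had a read in at least 1 WT library and 12796 in all 5. In every library, 10704 genes (31.4% of the table) reached 1 CPM, 7306 reached 10 CPM, 1721 reached 100 CPM and 79 reached 1000 CPM. Reads were concentrated on few genes, since 670 genes held 50% of the mean reads. The 103 genes with a mean of 1000 CPM or more held 23.9% of the reads, and 26 of them encode cytosolic ribosomal proteins and 9 are mitochondrial transcripts. The 2070 genes between 100 and 1000 CPM held 49.5%, the 6195 genes between 10 and 100 CPM 24.7%, the 4280 genes between 1 and 10 CPM 1.76% and the 7642 genes read below 1 CPM 0.169%.

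By reads, the first of the table were the mitochondrial ribosomal RNA mt-Rnr2 (13056 CPM), the actin gene Actb (12912), the translation elongation factor Eef1a1 (12788), the actin-binding peptide gene Tmsb4x (7661) and B2m (7290), the light chain of MHC class I. Per kilobase the order changed: among 20955 genes with a transcript length, Tmsb4x led with 8867 CPM per kb, followed by B2m with 8477, Eef1a1 with 7128, Actb with 6725, the mitochondrial genes mt-Co1 and mt-Cytb with 4221 and 4074, and Rpl4 with 3063. Tmsb4x, B2m, Eef1a1 and Actb lay within their spread of each other. No value per kilobase was given for mt-Rnr2, which has no coding transcript. Genes of the immune system were among the 25 with most reads. They included the MHC class I heavy chains H2-D1 (4053 ± 148 CPM) and H2-K1 (3645 ± 325), which belong to a family of similar genes and are uncertain for that reason, the phosphatase Ptprc (3988 ± 323), the factor Ets1 (2563 ± 325) and the lymphocyte GTPase Gimap4 (2294 ± 368; all SD, n = 5). Ptprc, at rank 12 by reads, ranked 62 per kilobase.

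**Figure D2:**
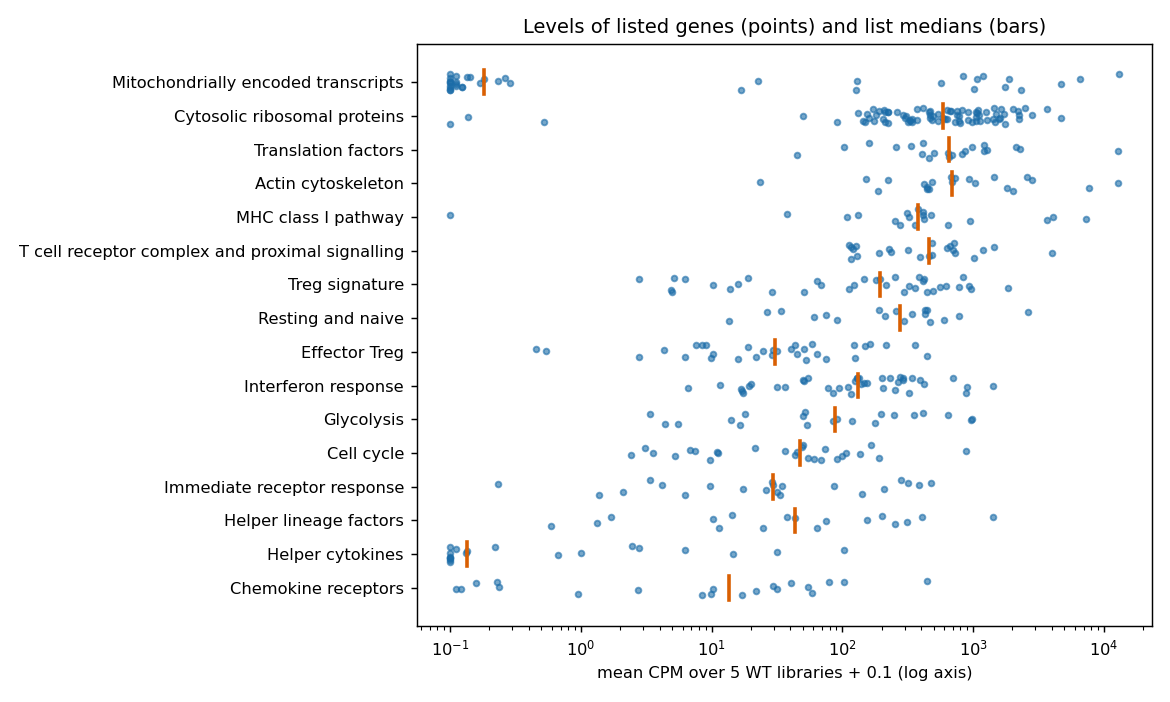
Mean CPM over the 5 WT libraries plus 0.1 (log axis) of every gene in 16 gene lists; points are genes and the orange bar is the list's median. CPM is not divided by transcript length here. Translation, actin and receptor genes lie mostly above 100 CPM, while the helper cytokines have a median of 0.03 CPM and 7 of 19 without a read.

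Treg signature genes were read widely. Of 35 genes of the list found in the table, 30 had a mean of 10 CPM or more and 22 a mean of 100 CPM or more, with a median of 194 CPM. Over all genes with a read, 10.7% had a mean of 100 CPM or more and the median was 4.11 CPM. Besides the markers, the members with most reads were Il2rb, the signalling chain of the IL-2 receptor (934 ± 184 CPM), the orphan receptor Gpr83 (832 ± 128), Rgs1, a regulator of G protein signals (776 ± 79.7), and the surface receptor Nrp1 (617 ± 42.8; all SD, n = 5). Per kilobase the order was another: the folate receptor family gene Folr4 (433 ± 25.2 CPM per kb) and Tnfrsf4 (429 ± 40.8) lay within their spread of Il2ra, and Il2rb had 223, Gpr83 232, Rgs1 202 and Nrp1 172 CPM per kb. At the other end stood Il10 with 0.566 to 6.25 CPM, Lag3 with 3.40 to 7.16 and Ebi3, a subunit of interleukin-35, with 0.662 in WT 402 and 6 to 10.1 CPM in the other 4 libraries.

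Molecules known to carry suppression spanned a wide range of levels. The ectoenzyme Nt5e, which makes adenosine, had 423 ± 44.3 CPM (SD, n = 5). Entpd1, which acts before Nt5e in that pathway, had 63.3 to 74.1 CPM, a CV of 5.6%. Per kilobase, Il2ra (420 CPM per kb) was followed by Ctla4 (215), the galectin Lgals1 (187 ± 35), Nrp1 (172 ± 11.9) and Nt5e (106 ± 11.1), of which Lgals1 lay within its spread of Ctla4 and of Nrp1, and Entpd1 had 16.2 CPM per kb. Of the secreted and granule molecules, Lgals1 had 117 to 193 CPM, and the others were low, with Gzmb at 8.02 to 14.2 CPM, Prf1 at a mean of 17.4 and Il12a at or below 0.103 CPM. Tgfb1 was read at 0.0602 to 1.44 CPM, and its transcript is rich in G+C (62.5%), a property described below with the levels of such genes.

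Genes of the resting and naive state were all read: each of 18 reached 1 CPM in every library, and 12 had a mean of 100 CPM or more. Among them S1pr1, the receptor that leads T cells out of lymphoid organs, had 712, 730, 875, 823 and 774 CPM in WT 398, 402, 405, 1032 and 1037. The chemokine receptor Ccr7, which guides cells into lymph nodes, had 472, 395, 486, 443 and 418 CPM. Both varied little, with CVs of 8.6% and 8.4%. Several genes known to be lower in Treg cells than in other CD4 T cells were also well read, among them Bcl2 (428 ± 64.0 CPM), Lef1 (426 ± 56.1) and Tcf7 (341 ± 40.9), and Il7r, the interleukin-7 receptor, ranged from 330 CPM in WT 402 to 639 in WT 398. From the same list, the cytokines Il2, Il4 and Ifng had means of 0.904, 0.120 and 2.37 CPM. Without other CD4 T cells in the series, these levels could not be set against non-Treg cells.

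Genes of activated or tissue Treg cells had a median of 30.4 CPM over 32 genes, with 7 of them at 100 CPM or more. Per kilobase the list's median was 14.2 CPM per kb, beside 69.3 for the Treg signature and 70.7 for the resting and naive list. The calcium-binding protein gene S100a10 had 445 ± 73.5 CPM (649 CPM per kb) and the costimulatory receptor Icos 358 ± 52.5 CPM (110 CPM per kb; both SD, n = 5). In this list WT 1037 was the highest library for 15 of the 23 genes with a mean of 10 CPM or more, beside 19.7% over all genes of that level, and its median log2 deviation from the mean was 0.36, against -0.03 over all 8368 genes of that level. Tigit, an inhibitory receptor, had 55.4, 54.7, 43.7 and 41.7 CPM in WT 398, 402, 405 and 1032 and 123 CPM in WT 1037. Klrg1, a receptor of terminally differentiated cells, had 10.2 to 17.5 CPM in the first 4 and 40.8 CPM in WT 1037. For both genes WT 1037 lay above the other 4, which overlapped closely. The receptor Tnfrsf9 showed the same order less widely, with 182 to 218 CPM and 290 CPM. Not all of the list shared it: Irf4 had its highest value in WT 1032 (123 CPM) and 48.6 CPM in WT 1037, and Cd44 had a CV of 5.5%, which was 2.2% without WT 1032. The transcripts of the list are short, with a median of 1755 bases, and WT 1037 read short transcripts higher than the other libraries, as given below. The part of length in the order was not tested.

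The machinery of T cell receptor signals was read at high levels in all libraries. Each of 23 genes had a mean of 100 CPM or more, with a median of 460 CPM and a median CV of 11.8%. Over all genes of like level the median CV was 14.5% between 100 and 1000 CPM and 14.0% at 1000 CPM or more. Lck, the kinase that starts the signal, had 1489, 1441, 1480, 1380 and 1399 CPM. Its CV of 3.4% was among the 15 lowest of the 2173 genes with a mean of 100 CPM or more, and was 2.0% without WT 1032. Cd2 (1193 ± 78.2 CPM), the adaptor Lcp2 (727 ± 41.7) and the costimulatory receptor Cd28 (635 ± 32.2) also varied little, and without WT 1037 the CV of Cd2 went from 6.6% to 4.3%. Cd3g, a chain of the receptor complex, had 791 to 1337 CPM. Genes induced soon after the receptor is triggered had a median of 29.3 CPM and a median CV of 27.1%, and a median of 11.4 CPM per kb beside 146 for the signalling machinery. Btg2 (473 ± 57.7 CPM) and Cd69 (319 ± 38.7) had CVs of 12.2% and 12.1%. Fos, a subunit of the AP-1 factor, had 254 CPM in WT 402 and 208 in WT 1037 but 96.8, 51.1 and 92.6 CPM in WT 398, 405 and 1032. Fosb and Nr4a2, at 6.48 CPM or less in every library, also had these 2 libraries highest. Not all of the list followed them. Of its 14 genes with a mean of 10 CPM or more, WT 402 was highest for 3 and lowest for 4. Over all genes of that level these shares were 20.7% and 25.7%. WT 1037 was highest for 5 of the 14 and lowest for 0, beside 19.7% and 21.8%. The median log2 deviation of the list was -0.21 in WT 402, 0.15 in WT 1037 and 0.18 in WT 398.

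Of the IL-2 receptor pathway, the common chain Il2rg (1315 ± 125 CPM) and the kinase Jak1 (1309 ± 274) stood beside Il2ra and Il2rb. Per kilobase, Il2rg (788 CPM per kb) was above Il2ra (420), Jak1 (267) and Il2rb (223). Among factors known to act at the Foxp3 gene, 29 of 29 were read at 1 CPM or more in every library. Those with most reads were Ets1, Foxp1 (600 ± 50.4 CPM), Ikzf1 (498 ± 60.5), Elf1 (380 ± 32.4) and Foxo1 (298 ± 35.9). Per kilobase, Ets1 (504 CPM per kb) stood far above Ikzf1 (96.5 ± 11.7), Elf1 (89.8 ± 7.65) and Foxp1 (83.6 ± 7.02), and the last 3 overlapped, while Foxo1 had 34.4 CPM per kb. Runx1, the partner of Cbfb in that role, had 24.1 to 44.5 CPM and Runx3 5.45 to 12.3 CPM. Dnmt1, which methylates DNA (81.9 to 128 CPM), was read in all libraries. So were Tet2 (82.5 to 113) and Tet3 (71.5 to 135), which oxidize methylated cytosine, and Dnmt3l had no read.

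Helper cell factors were present in part. Stat6 (404 ± 65.1 CPM), Tox (311 ± 47.7) and Gata3 (155 ± 12.2) were well read, whereas Tbx21, the lineage factor of type 1 helper cells, had a mean of 0.494 CPM and was at 0 in 2 libraries. Of 19 helper cytokines, 7 had no read in any library, namely Il3, Il9, Il13, Il17a, Il17f, Il21 and Il22. Lta was the exception with 103 ± 19.2 CPM (SD, n = 5), followed by Ltb with 14.7 to 44.9 CPM and Tnf with 12.8 to 16.4.

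Interferon-induced genes were read in all libraries without stimulation: 40 of 40 reached 1 CPM in each, and 25 had a mean of 100 CPM or more. Among those with most reads were the GTPases that defend cells against pathogens inside them, such as Gbp7 (891 ± 58.7 CPM), Ifi47 (882 ± 86.7), Igtp (701 ± 52.1) and Gbp2 (423 ± 68.2). These GTPases belong to families with similar members and are uncertain for that reason. Such genes are known to be turned on by factors that bind the interferon-stimulated response element, whose core is GAAANNGAAA. To show that core in genes of this list, the 150 bases before the start are printed for 4 of them, on the gene's own strand from RefSeq (build GRCm38.p6), with matches in capitals, read in either direction. They are Gbp7 at chr3:142530186-142530335 (plus strand), Igtp at chr11:58199406-58199555 (plus), Gbp2 at chr3:142620513-142620662 (plus) and Isg15 at chr4:156200819-156200968 (minus).
Gbp7: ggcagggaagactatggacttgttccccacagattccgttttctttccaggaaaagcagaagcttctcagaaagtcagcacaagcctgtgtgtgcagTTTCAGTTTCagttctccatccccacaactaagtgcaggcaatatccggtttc
Igtp: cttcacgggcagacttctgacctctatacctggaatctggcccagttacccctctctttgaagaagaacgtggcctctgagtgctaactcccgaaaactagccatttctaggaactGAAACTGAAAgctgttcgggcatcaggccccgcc
Gbp2: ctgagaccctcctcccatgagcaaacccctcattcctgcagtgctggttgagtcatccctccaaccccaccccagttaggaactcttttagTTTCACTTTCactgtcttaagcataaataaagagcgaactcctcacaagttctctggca
Isg15: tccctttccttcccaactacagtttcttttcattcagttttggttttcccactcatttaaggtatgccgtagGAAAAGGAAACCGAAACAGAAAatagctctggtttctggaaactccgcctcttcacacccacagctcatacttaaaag
In the 250 bases before the start, 16 of 28 promoters of the list with a sequence held the core (57.1%), beside 2.9% of the 16349 genes matched by name and 3.0% of all 27025 promoters in the table. Isg15 holds 3 overlapping matches. A match describes the letters and not a bound site.

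Within the list, WT 1037 was the highest library for 23 of 39 genes with a mean of 10 CPM or more, beside 19.7% over all genes of that level. Ly6a had 222 to 275 CPM in the other 4 libraries and 490 CPM in WT 1037, Ifi27l2a had 204 to 226 and 406 CPM, Irf7 108 to 117 and 203 CPM, and Ifit1 160 to 202 and 279 CPM. In each of these 4 genes WT 1037 lay apart from the rest. Not all of the list followed it: Gbp7 and Gbp2 were lowest in WT 1037. Isg15, a ubiquitin-like modifier, had 17.0 to 24.6 CPM in 4 libraries and 2.97 CPM, from 54 reads, in WT 1032.

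Cytosolic ribosomal protein genes took the largest share of reads among the lists, a mean of 6.96%. The 83 cytosolic ribosomal protein genes together took 59110 CPM in WT 1032 to 78996 in WT 1037, with a median of 591 CPM per gene, and Rpl3l had no read. Many of them have processed copies in the genome, so their counts are uncertain. WT 1032 was the lowest library for 56 of 80 of these genes, beside 23.6% over all genes at 10 CPM or more. Their transcripts are short, with a median of 925.5 bases, a class in which WT 1032 stood low, as given below. The part of length in this order was not tested. A short motif bound by Ets family factors, CCGGAAG, stood in 18 of 62 ribosomal promoters with a sequence (29.0%), beside 9.0% of all matched genes. By class of CPM the share was 2.2% of matched genes without a read, 17.5% between 10 and 100 CPM, 16.1% between 100 and 1000 CPM and 13.4% at 1000 CPM or more. The 3 with most reads among those that hold it in the 150 bases before the start are shown, with matches in capitals, for Rps6 at chr4:86857368-86857517, Rps18 at chr17:33955666-33955815 and Rps7 at chr12:28635954-28636103, all on the minus strand and written on the gene's own strand.
Rps6: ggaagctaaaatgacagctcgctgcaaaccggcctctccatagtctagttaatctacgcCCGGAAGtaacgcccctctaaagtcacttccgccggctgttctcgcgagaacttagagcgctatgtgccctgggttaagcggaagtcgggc
Rps18: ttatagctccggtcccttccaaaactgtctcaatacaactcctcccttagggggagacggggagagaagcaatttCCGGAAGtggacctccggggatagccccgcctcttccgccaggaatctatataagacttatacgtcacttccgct
Rps7: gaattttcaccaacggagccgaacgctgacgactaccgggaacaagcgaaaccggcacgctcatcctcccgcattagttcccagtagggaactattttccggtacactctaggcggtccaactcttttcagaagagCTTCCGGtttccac
In Rps7 the motif stands in the opposite direction. The proteasome list, with 8 of 32 promoters, and the actin list, with 5 of 20, each held it in 25%.

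Promoters of expressed genes differed in composition from those of silent genes as a description over classes of CPM. The median number of CpG dinucleotides in the 250 bases was 3 in genes without a read, 7 below 1 CPM, 14 between 1 and 10 CPM, 17 between 10 and 1000 CPM and 15 at 1000 CPM or more. The letters TATAAA stood in 20.7% of promoters of genes without a read, in 5.2% between 10 and 100 CPM and in 20.9% of 67 promoters at 1000 CPM or more. The promoter of Foxp3 belongs to the group with these letters. It is printed from RefSeq (build GRCm38.p6, chrX:7579526-7579675, plus strand) as the 150 bases before the first listed start, with TATAAA in capitals, which ends 26 bases before that start.
Foxp3: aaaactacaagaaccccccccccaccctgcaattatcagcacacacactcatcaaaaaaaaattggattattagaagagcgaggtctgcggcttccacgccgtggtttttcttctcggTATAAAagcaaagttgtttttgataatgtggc
CCAAT stood in 13 of 17 promoters of the MHC class I pathway and in 17 of 21 promoters of the cell cycle list, beside 35.9% of all matched genes. The letters GGGCGG, a core bound by Sp family factors, stood in 43.0% of all matched genes, in 21.4% of those without a read, in 61.4% between 10 and 100 CPM, in 60.3% between 100 and 1000 CPM and in 38.8% at 1000 CPM or more. Motifs were searched on both strands, and matches of different motifs may overlap.

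The MHC class I pathway had 17 of 19 genes at 100 CPM or more and a median of 380 CPM. Of the other 2, H2-Q4, a member of a family of similar genes that was named after its values were seen, had a mean of 37.3 CPM. Psmb9, a subunit of the immunoproteasome, had no read in any library while its partner Psmb8 had 380 to 541 CPM. Whether Psmb9 was not expressed or its reads were not counted under its symbol cannot be told from these counts. Among glycolytic enzymes, most reads fell on Pkm2 (978 ± 56.4 CPM), Ldha (963 ± 64.9) and Eno1 (640 ± 58.0), in per kilobase terms 402, 531 and 316 CPM per kb, and the list's sum varied only from 4368 to 4655 CPM. Gapdh, which has many processed copies in the mouse genome, was read at 163 to 229 CPM, and reads without a unique place (14.7 to 19.7% of each column) were not counted on genes. Of the cell cycle list, Ccnd2, a cyclin that T cells use to enter the cycle, stood at 889 ± 134 CPM, and the replication genes Mcm6 (191 ± 16.7), Mcm4 (164 ± 28.5) and Pcna (107 ± 17.4) at 100 CPM or more. Mki67, a marker of dividing cells, had 38.6 to 77.6 CPM, and Cdk1 4.81 to 9.77 CPM.

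Surface receptors of other families were read over a wide range. Of 19 TNF receptor family genes, 8 had a mean of 100 CPM or more and 3 a mean below 1 CPM. Tnfrsf4, which encodes the costimulatory receptor OX40, had 463, 415, 395, 435 and 502 CPM in WT 398, 402, 405, 1032 and 1037, and Tnfrsf18, which encodes GITR, 412, 416, 312, 362 and 415 CPM. Their CVs were 9.5% and 12%, and without WT 405, the lowest library for both, that of Tnfrsf18 was 6.6%. Cd27 (440 ± 31.4 CPM) and the death receptor Fas (184 ± 11.5; both SD, n = 5) had CVs of 7.1% and 6.3%, which went to 2.8% without WT 1032 and to 3.1% without WT 402. Of 20 chemokine receptors, only Ccr7 and Gpr183, a receptor for oxysterols that positions cells in lymphoid tissue (103 ± 10.3 CPM), had a mean of 100 CPM or more, and 6 had a mean below 1 CPM. The gut homing receptor Ccr9 had 63.5 to 89.3 CPM, and Cxcr5, which leads cells into B cell follicles, 48.4 to 64.2 CPM. Among adhesion genes, the integrin chain Itgb2 (780 ± 108 CPM) and the receptors Cd48 (583 ± 73.1) and Cd47 (449 ± 26.8) were well read, and 15 of 20 genes had a mean of 100 CPM or more. Per kilobase, Cd48 (492 CPM per kb) stood above Itgb2 (263 ± 36.5) and S1pr1 (257 ± 22), which overlapped, and Cd47 had 85.4 CPM per kb.

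Of the survival genes, Bcl2 and Mcl1 (292 ± 16.2 CPM), which block cell death, had most reads, while Bcl2l11, which encodes the death-promoting protein Bim, had 55.6 to 92.8 CPM and Bax 34.1 to 51.5 CPM. Per kilobase, Mcl1 (85.4 CPM per kb) stood above Bcl2 (59.5), Bax (41.3) and Bcl2l11 (15.1). These 2 protectors were the only members of the 17 genes with a mean of 100 CPM or more. All 8 Gimap genes, lymphocyte GTPases in 1 gene cluster that support survival, had a mean of 100 CPM or more. Gimap4 and Gimap9 varied most among the 6 with most reads, with CVs of 16.0% and 25.5%, and Gimap3 least. By reads, chaperones without stimulation ran from Hspa8, the constitutive Hsp70 (3625 ± 341 CPM), and Hsp90ab1 (1757 ± 195) to Hspa1a, the inducible form, which had 0 to 1.32 CPM in 4 libraries and 14.6 CPM in WT 1037, and Hspb1, which had no read. Hspa1a has a near-identical copy, Hspa1b, and is uncertain, although Hspa1b was also highest in WT 1037, at 5.61 CPM.

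Genes of energy supply and protein turnover were read almost completely. Of 83 nuclear genes of the respiratory chain, 74 had a mean of 10 CPM or more. Most reads fell on the ATP synthase subunits Atp5a1 (898 ± 56.1 CPM) and Atp5b (678 ± 46.9), with 336 and 354 CPM per kb, while Cox4i1, a subunit of complex IV, had 517 CPM per kb. The 4 without a read were Cox7a1, Cox7b2, Cox8b and Cox8c, subunit forms known from muscle or testis. Of 39 proteasome genes, 36 reached a mean of 10 CPM, and the list's sum ranged from 5870 to 7469 CPM. WT 1032 was the lowest library for 40 of 74 respiratory genes and 16 of 36 proteasome genes, beside 23.6% over all genes at 10 CPM or more. WT 398 was the lowest for 15 of the 36 proteasome genes, beside 15.8% over all genes, and had the list's lowest sum, with 5996 CPM in WT 1032. Both lists have short transcripts, with medians of 913 and 1586 bases, a class in which WT 398 and WT 1032 stood low, as given below.

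Spread between libraries narrowed with CPM. The median CV was 53.4% between 1 and 10 CPM, 23.6% between 10 and 100, 14.5% between 100 and 1000 and 14.0% at 1000 CPM or more. Over the 8368 genes with a mean of 10 CPM or more the median was 20.6%, the quartiles were 14.4 and 29.0%, and the 95th percentile was 44.6%. Of these genes, 828 had a CV under 10% and 206 (2.46%) a CV over 50%. Across 11223 genes the common biological coefficient of variation, the spread left after counting error, was 0.315.

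**Figure D3:**
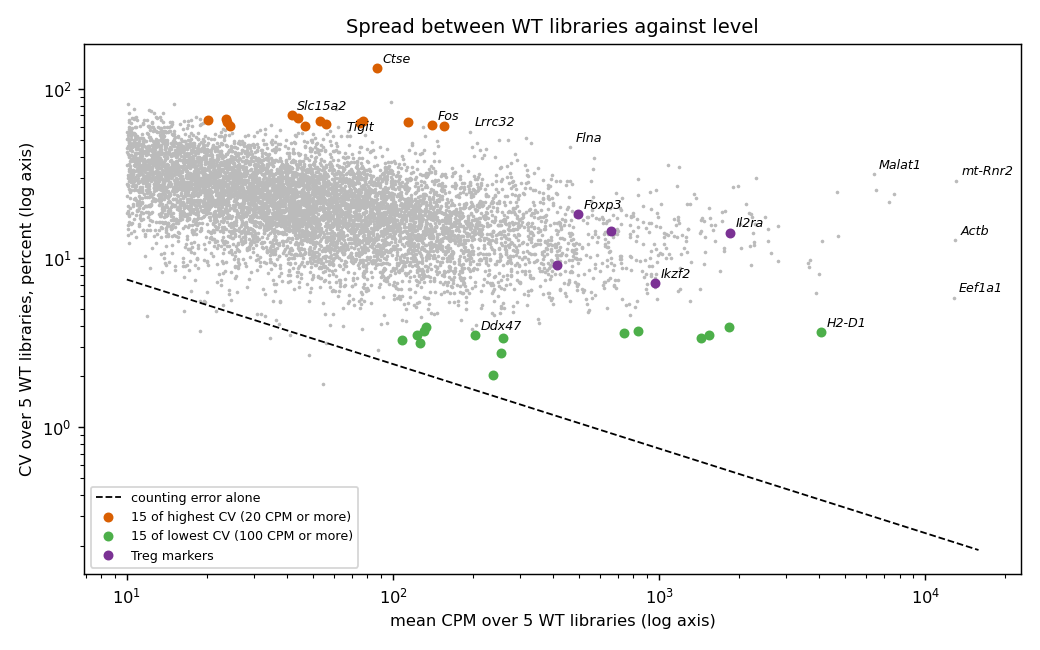
CV over the 5 WT libraries in percent against mean CPM, both on log axes, for genes with a mean of 10 CPM or more; the dashed line is the CV that counting error alone would give. The markers Foxp3, Il2ra, Ctla4, Ikzf2 and Cd4 lie at 7.1 to 18.2%, the 15 most even genes at 3.92% or less, and Ctse at 133%.

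The most even genes included signalling and trafficking genes at middle CPM. Pias1, a SUMO ligase that restrains Stat proteins, had 238, 229, 241, 238 and 241 CPM, a CV of 2.0%, and of 0.75% without WT 402. Pik3r1, the regulatory subunit of PI3-kinase, had 245 to 261 CPM, the factor Cux1 121 to 130 CPM and Gimap3 714 to 770 CPM. Among genes with more reads, the RNA-binding protein gene Hnrnpk (1493 to 1628 CPM), Coro1a, an actin regulator of T cells (1770 to 1944 CPM), and H2-D1 (3854 to 4272 CPM) belonged to the same 15. Of the reference genes often used in PCR, B2m was not even, with 4970 CPM in WT 398 and 8900 CPM in WT 402, and its CV of 21.6% was 13.4% without WT 398.

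At the other end, the gene of widest spread was Ctse, which encodes the protease cathepsin E. It had 27.8, 27.9, 38.4 and 47.1 CPM in WT 398, 402, 405 and 1037 and 295 CPM, from 5364 reads, in WT 1032. This library alone set the CV of 133%, which was 27% without it. Slc15a2, a peptide transporter gene, was the reverse case, with 60.5, 49.0, 73.3 and 25 CPM in WT 398, 402, 405 and 1032 and a single read (0.0578 CPM) in WT 1037. Its CV of 70.3% went to 39.5% without WT 1037. Among 9773 genes with a mean of 5 CPM or more, only Ctse and Tmem146, which was named after its values were seen, had a library at least 4-fold above the next, and 84 genes had a library at least 5-fold below the next, in 38 cases WT 402 and in 33 cases WT 1032.

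**Figure D4:**
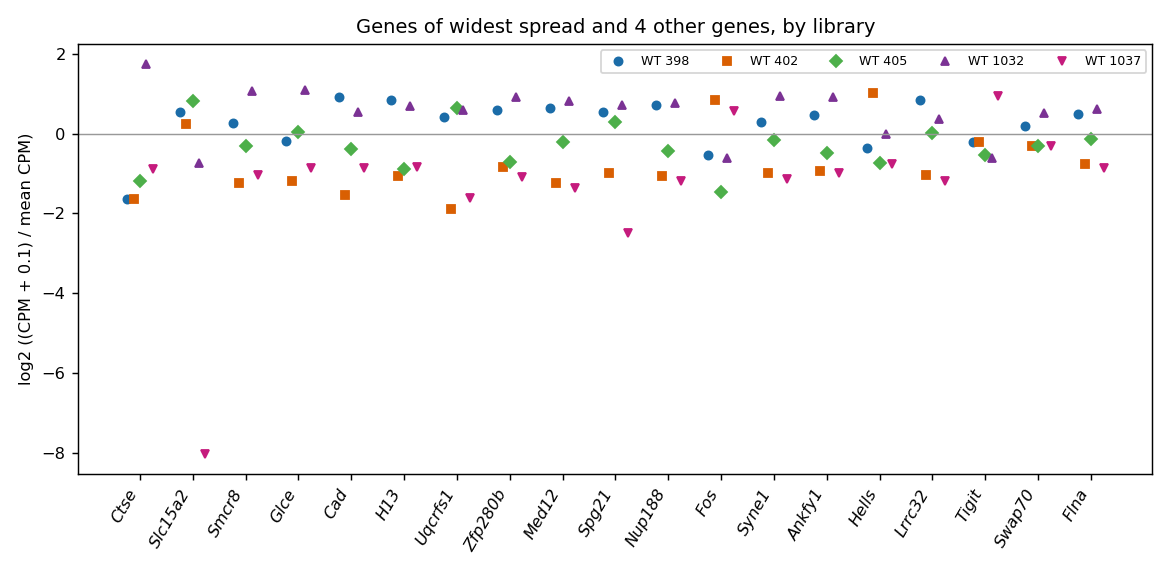
log2 of CPM plus 0.1 over the mean CPM, for the 15 genes of widest spread and for Lrrc32, Tigit, Swap70 and Flna, in the 5 WT libraries; each symbol is 1 library and the line at 0 is the mean. WT 402 and WT 1037 are the 2 lowest in 10 of the 15 genes, beside 20.7% over all genes at 10 CPM or more. Ctse and Slc15a2 each have 1 library far from the other 4.

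Most other genes of wide spread shared a pattern of libraries. In 10 of the 15 widest, WT 402 and WT 1037 were the 2 lowest libraries. WT 1032 was the highest in 9 of 15, beside 24.3% over all genes at 10 CPM or more. Med12, a subunit of the Mediator complex, had 176, 97.4 and 202 CPM in WT 398, 405 and 1032 and 48.4 and 44.1 CPM in WT 402 and 1037. Ankfy1, an endosomal protein gene, had 216, 112 and 293 CPM against 81.3 and 78.7 CPM. Of the 100 genes of widest spread at 20 CPM or more, 63 had these 2 libraries lowest, while the next pair had 9, and over all genes at 10 CPM or more the pair was lowest in 20.7% and every other pair in 5.57 to 13.2%. Lrrc32, the surface protein that holds latent TGF-beta on Treg cells, showed this pattern, with 345, 196 and 248 CPM in WT 398, 405 and 1032 and 94.1 and 85.6 CPM in WT 402 and 1037. It had the widest spread of the 22 Treg signature genes at 100 CPM or more, a CV of 56.2%. Flna, an actin crosslinker named after its values were seen, had 648, 424 and 716 against 276 and 256 CPM.

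Transcript length and base composition moved with these differences between libraries. Genes at 10 CPM or more were divided into 5 classes of equal size by the length of the longest coding transcript, which was found for 92.0% of them. From the shortest class to the longest, the median log2 deviation from the mean went from -0.08 to 0.18 in WT 398 and from -0.17 to 0.16 in WT 1032, and the other way from 0.08 to -0.21 in WT 402 and from 0.15 to -0.21 in WT 1037. WT 405 stayed between -0.04 and 0.02 in all 5 classes. With G+C content, WT 398 went from -0.06 in the lowest class to 0.20 in the highest and WT 402 from 0.00 to -0.12. The order by length was present within each of 3 classes of G+C content for these 4 libraries. The 100 genes of widest spread had a median length of 4898 bases, beside 3207 bases for all genes at 20 CPM or more, and a median G+C of 49.6%, beside 48.6%. Lrrc32 has a transcript of 4576 bases with 58.3% G+C. The part of length and composition in the spread of a single gene was not tested.

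**Figure D5:**
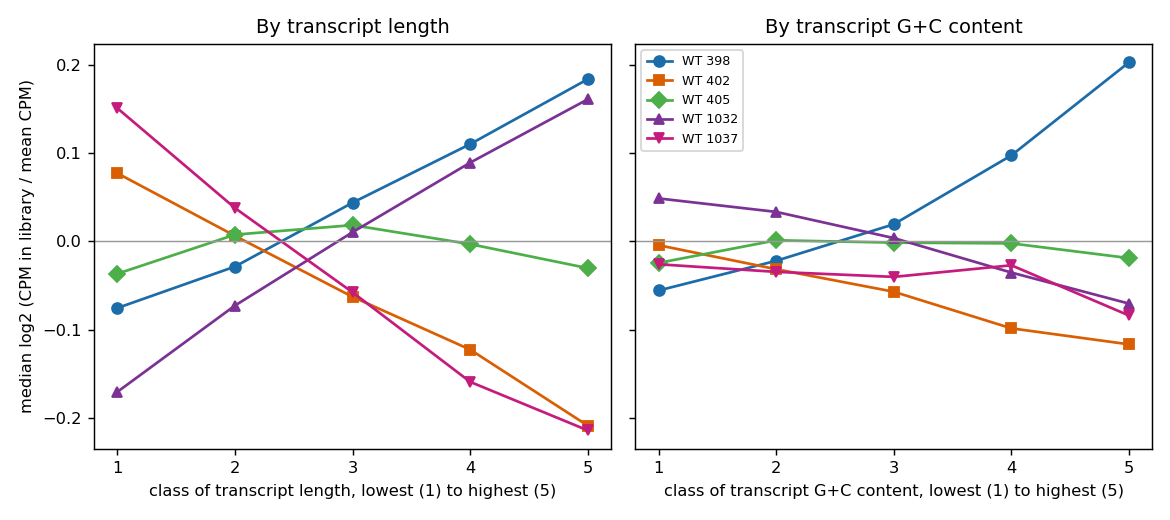
Median log2 of CPM over mean CPM in 5 classes of transcript length (left) and of transcript G+C content (right), for genes with a mean of 10 CPM or more; each line is 1 WT library. By length, WT 398 and WT 1032 go up and WT 402 and WT 1037 go down, to between -0.21 and 0.18 in the longest class.

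Mitochondrial transcripts separated the libraries too. They took 2.69% of reads on genes in WT 398, 3.93% in WT 402, 2.99% in WT 405, 3.17% in WT 1032 and 4.75% in WT 1037. WT 1037 was highest for 12 of 15 mitochondrial genes at 10 CPM or more, beside 19.7% over all genes of that level. WT 398 was lowest for 9 of the 15, beside 15.8%. The gene mt-Co1 had 4697, 7609, 5603, 5886 and 8814 CPM. The nuclear noncoding RNA Malat1 ranged likewise from 4183 CPM in WT 1032 to 9178 in WT 1037.

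Detection also differed. WT 398 had reads on 18255 genes, and the other 4 libraries on 14810 to 16440, although the number of genes at 1 CPM or more was similar (12241 to 12578). Genes with at most 3 reads in a library but 2 CPM or more in each of the others numbered 72 in WT 402 and 49 in WT 1032, 7 in WT 405, 6 in WT 1037 and 0 in WT 398. Over all genes with a transcript sequence, 36.2 to 43.0% reached a mean of 10 CPM in the 8 middle classes of 10 by G+C content, 21.2% in the lowest and 20.9% in the highest class (57.9% or more). Some genes known in T cells that had few reads stand in that highest class, such as Tgfb1, Jund (67.1% G+C, 2.53 to 6.30 CPM) and Junb (62.6%, 4.73 to 14.0 CPM). The part of G+C content in their levels was not tested.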

How the data were processed

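The deposited files hold raw counts for each gene symbol and, as a second table by the authors, log2 values whose scaling no source used here states. Per the submitters' processing notes, the tools were STAR, BWA and edgeR and the build was mm9, without versions or roles. The annotation, the read counter and its use of strand are not given in the sources used here. Of the 9 value columns in each of 2 tables, the 2 columns numbered 407 were not used (4 in all), since their values are identical and the labels give the number to both genotypes. Another deposited table, of signed values without named groups, was not used.

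The 5 summary rows of the read counter were kept out of library sizes. Between 22.0 and 23.0% of a column's reads lay on genes, and 48.1 to 54.3% lay on no feature. Counts of the 5 WT libraries were scaled by TMM in edgeR 4.0.16 (R 4.3.3), without the CNS2KO libraries. The common biological coefficient of variation came from an intercept fit after filterByExpr. No groups were compared and no test of a difference was made. To look for libraries deposited more than once, counts were compared pair by pair by chi-square, which gave 29.9 or more per degree of freedom, so no pair agreed within sampling noise. Transcript lengths and G+C came from GENCODE mouse M21 by gene symbol, and promoters from RefSeq (GRCm38.p6). Both differ from the build mm9, so the coordinates printed with promoters are those of RefSeq and not of the annotation on which reads were counted. The measures of spread were tested on simulated data.

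Genes were named by a rule: the 5 markers; the 25 of highest mean CPM; the 6 highest members of each of 38 lists and members without a read; the 15 of highest CV at 20 CPM or more and the 15 of lowest CV at 100 CPM or more, without clone or predicted names; and members of lists that show 1 library apart. Some genes that the rule names are left out of the text. Other list members are named as examples chosen after their values were seen. The members and lists were chosen with earlier results of these data known. Alternatives were relative log expression scaling, no scaling, mitochondrial transcripts left out of the library size, other filters, DESeq2 1.42.0, the SD of log2 values, the authors' log2 values, lengths, libraries with numbers of 3 digits only, and each library left out.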

Additional observations from a re-analysis of the deposited data

Results flagged for a closer look

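Over the 5 libraries, 259 checks were made of a gene or a list's sum. In 11 of them the highest or lowest library stood far from the other 4 (a gap of over 0.71 of the whole range). Chance flags about 1 in 20, and 11 of 259 is not above that share. Genes of highest and lowest CV were picked from these same values, so that rate does not hold for them. The flags are a description and were not tested further. Ctse had 295 CPM in WT 1032, with the next library at 47.1 CPM. Hells, a chromatin remodeller of dividing cells, had 49.99 CPM in WT 402, with the next at 24.4 CPM. In WT 1037, Hmgb2 stood at 217 CPM and Ighm at 1294 CPM, above 132 and 1067 CPM. Ddx47 and Pdcd6, both among the 15 most even genes, were also highest there, at 216 and 142 CPM. WT 402 was lowest for the replication gene Mcm4, at 115 CPM with the next at 168 CPM, and highest for the MHC class II gene H2-Eb1, at 18.8 CPM. The TNF receptor family member Cd27 was lowest in WT 1032, at 386 CPM. The summed chemokine receptors were lowest in WT 402, at 801 CPM, and the summed homing and adhesion genes highest in WT 1032, at 8722 CPM.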

How the results depend on the processing

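No paired analysis was possible because 1 group was described and no genotypes were compared. Counts of genes by level stayed within 1.5 times their values under every alternative run: leaving out each library in turn gave 10789 to 11027 genes at 1 CPM or more in every library, 7360 to 7496 at 10 CPM, 1733 to 1790 at 100 CPM, and 654 to 692 genes holding 50% of reads. Counts that ask for every library can hardly fall when a library is left out. They all rose, so the direction of that change says little about stability. The median CV of genes at 10 CPM or more was 0.191 to 0.214 and the common biological coefficient of variation 0.304 to 0.333 when 1 library was left out. With numbers of 3 digits only, which are the libraries headed YI, they were 0.181 and 0.314. Without a filter on low counts they were 0.473 and 0.671. With DESeq2 the coefficient was 0.242, beside 0.315, but it came from the median over single genes and not from a common fit. Of 2030 alternative CVs of named genes, 135 moved by more than 1.5 times, mostly where fewer libraries were used. The setting with numbers of 3 digits only gave 48 of these 135, the most of any setting. Of 2034 alternative means, 10 moved by more than 1 SD, all with mitochondrial transcripts left out of the library size. Ranks of the named genes by CPM and per kilobase had a Spearman correlation of 0.946 with coding length, and of 0.950 with transcript length, which was added after seeing the data. Coding length was summed from the annotation, not from protein sequences. The depth limits statements on absence: no counted read in a library means under 0.154 to 0.180 CPM. Since the annotation is not given, reads of such a gene may also have been left uncounted under its symbol.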
